A study of Mus musculus with 4 samples.

Results

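Aminoacyl-tRNA synthetases are the enzymes that join each amino acid to its transfer RNA, the step that sets up protein synthesis. The 36 genes described here were chosen by symbol, 20 for the cytosolic enzymes and 16 for the mitochondrial ones, out of 51826 gene models in the deposited table. All 36 symbols were found, each in a single gene model, and all passed the filter on low counts. The libraries were messenger RNA-seq of primary microglia, the brain's resident macrophages, from newborn C57BL/6 mice. Mixed glial cultures were grown for 2 weeks and the microglia were then shaken off. The 2 LysoPS libraries came from cells given lysophosphatidylserine for 4 h, at a dose that the labels do not give. The treatment protocol speaks of a single treated replicate, while 2 samples are labelled as treated; the sample labels were followed, and the groups rest on them. LysoPS is a phospholipid that retains a single fatty acid chain and acts on the receptor GPR34. The 2 mock libraries came from cells labelled untreated. No genetic change is labelled in either group. The labels do not say whether replicates came from separate cultures, so the p-values measure only the spread between these libraries, which may be technical.

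In mammals most amino acids have one synthetase gene for the cytosol and a second gene, written with a final 2 in mouse, for the mitochondrion. Both kinds are encoded in the nucleus. Gars (glycine) and Kars (lysine) each supply both compartments, and mitochondria charge glutamine tRNA indirectly, through Ears2 and an amidotransferase. Several cytosolic enzymes sit together in the multisynthetase complex, held by the scaffold proteins encoded by Aimp1, Aimp2 and Eef1e1. In other cells, many cytosolic synthetase genes are known targets of ATF4, the transcription factor of the amino acid response and the integrated stress response, and Wars (tryptophan) is known as an interferon-inducible gene.

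The LysoPS libraries held 34689045 and 45193959 counts, and the mock libraries held 30001098 and 41572340. The cell types of the cultures were described with summed markers. The 14 microglia and macrophage markers summed to 14647 and 12787 CPM (normalised read counts, scaled to TMM library sizes) in the LysoPS libraries. In the mock libraries they summed to 5818 and 5292 CPM. Lyz2, the lysozyme gene of macrophages, alone made up 10512 and 9123 CPM of the LysoPS sums and 2929 and 2700 CPM of the mock sums. Without it the other 13 markers summed to 4135 and 3664 CPM in the LysoPS libraries and to 2888 and 2593 CPM in the mock libraries. The cultures also held RNA of other cells. In the mock libraries the astrocyte sums and the fibroblast and mural cell sums were both above those of microglia and macrophages. In the LysoPS libraries both were below them only with Lyz2 counted. Both were above the sums of the other 13 markers there too. Sums of different marker lists do not give shares of cells, and which cells held the synthetase transcripts was not measured. The 11 astrocyte markers summed to 5137 and 5869 CPM in the LysoPS libraries and to 11008 and 9896 CPM in the mock libraries. The 9 fibroblast and mural cell markers summed to 12212 and 12568 CPM in the LysoPS libraries and to 14804 and 14937 CPM in the mock libraries. Oligodendrocyte lineage markers summed to 333 and 317 CPM in the LysoPS libraries and to 336.5 and 321 CPM in the mock libraries, endothelial markers to 165 and 189 CPM in the LysoPS libraries and to 342 and 335 CPM in the mock libraries, and neuronal markers to 361 and 532 CPM in the LysoPS libraries and to 430.1 and 514 CPM in the mock libraries. No marker of any list was at 0 in all libraries. In such bulk RNA, fewer cells of a type and less RNA per cell cannot be told apart, and the part of these marker shifts in the synthetase results was not tested.

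Per length, the cytosolic synthetases were the more abundant transcripts. In deposited TPM (transcript level scaled for length and library), the mock means of the cytosolic genes ran from 38.9 for Farsa, the catalytic phenylalanine subunit, to 146 for Nars, the asparagine enzyme. The mitochondrial genes ran from 3.75 for Mars2, the methionine enzyme, to 39.6 for Iars2, the isoleucine enzyme. Summed over the 20 genes, cytosolic synthetases stood at 1888 and 1871 TPM in the LysoPS libraries, against 1573 and 1572 TPM in the mock libraries. The 16 mitochondrial genes summed to 224 and 231 TPM in the LysoPS libraries and to 251 and 255 TPM in the mock libraries. The TPM and count scales are centred differently. Over all tested genes, the median log2 difference between the groups was -0.14 on log2(TPM + 1), against -0.01 in the count fit. The centre of the count fit is set by the TMM scaling, and which scale is nearer the true levels was not tested. In CPM the mitochondrial sums were 321 and 319.9 in the LysoPS libraries and 324 and 314 in the mock libraries, so the groups overlapped on that scale. The plot of levels by library shows both classes gene by gene.

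**Figure D1:**
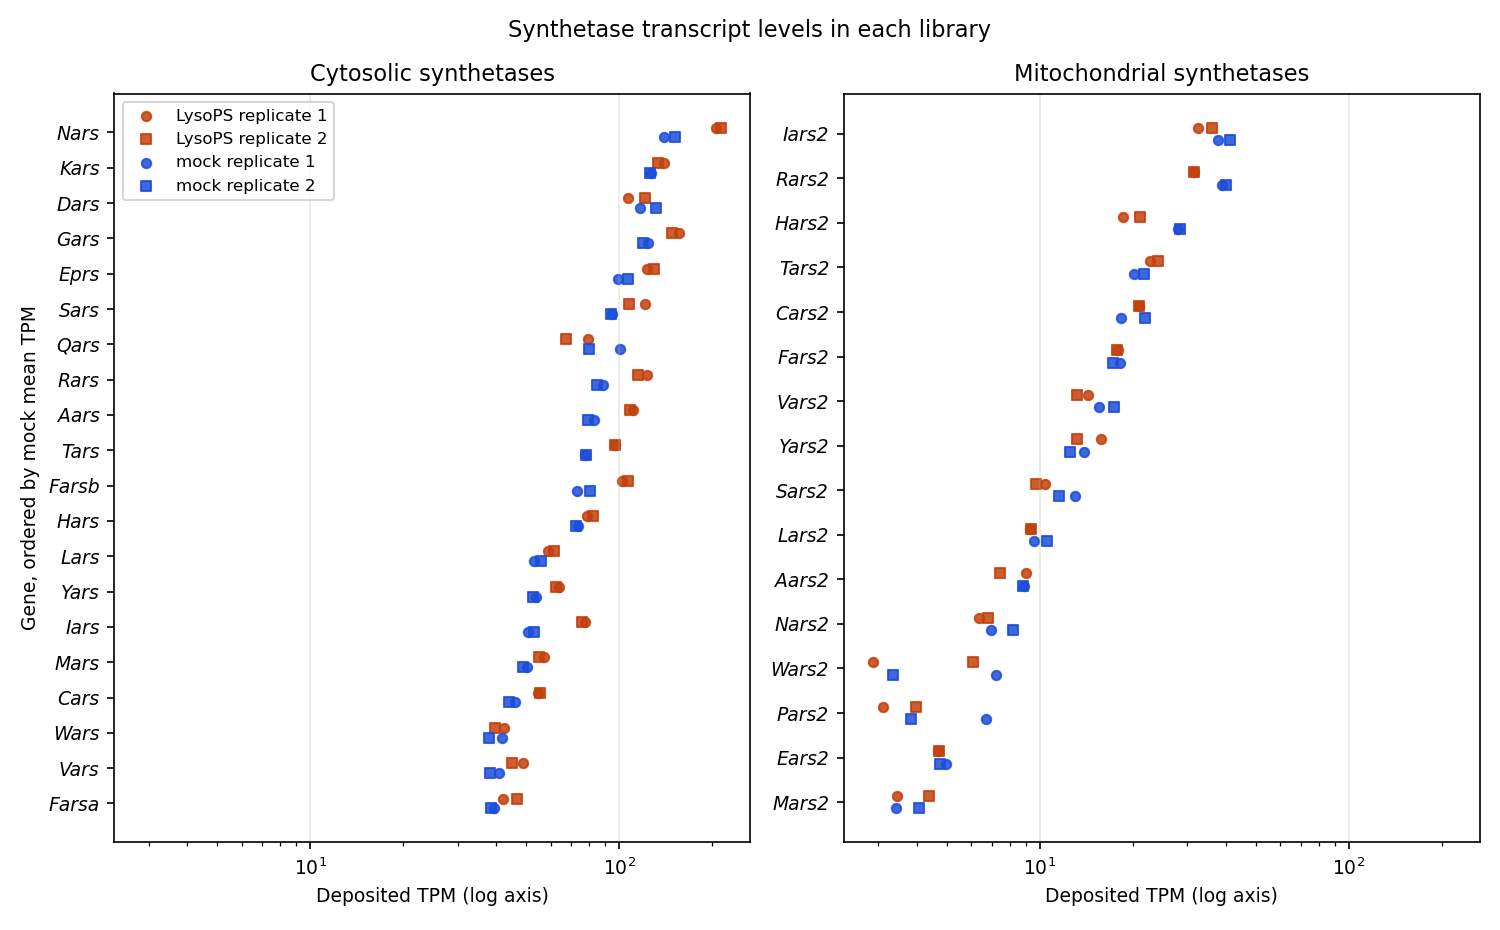
Deposited TPM on a log axis for each of the 20 cytosolic (left) and 16 mitochondrial (right) synthetase genes, ordered by their mock mean. Each point is 1 library; Nars leads the cytosolic genes at 206 and 214 TPM in LysoPS against 139.6 and 152 TPM in mock, while Wars2 and Pars2 are spread widely between replicates.

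Transcripts of most cytosolic synthetases rose by a modest amount. Of the 20 genes, 17 were higher in LysoPS at an adjusted p under 0.05 (edgeR quasi-likelihood test, Benjamini-Hochberg over 19057 genes) and none was lower, also at an unadjusted p under 0.05 and by DESeq2 and limma-voom, against a background of 12.8% of all tested genes called higher and 12.6% called lower. Among genes whose mean level lay within the range of these 20, from 35.1 to 274 CPM, the share called higher was 20.2%. The 17 called genes were up by 22.7% to 70.3%, and only 5 of all 36 members had an estimate of 1.5-fold or more. When tested against a null of a 1.5-fold change, 0 of the 20 passed, while 1064 of all tested genes did. The median log2 fold change of the 20 genes was 0.46, against -0.01 over all tested genes. Both LysoPS libraries lay above both mock libraries for 18 of the 20, where 32.5% of all tested genes did so. Microglia and macrophage markers were higher in the same libraries, with a median log2 fold change of 0.54, 9 of 15 gene models called higher and 2 called lower, and astrocyte markers were lower, with a median of -0.87 and 9 of 11 called. On the TPM scale, tested with limma, 8 of the 20 were called higher, where 7.1% of all genes were, and 18 had a positive difference. There 1353 genes of all kinds were called higher and 3088 lower, against 2447 higher and 2407 lower in the count fit. Without mock replicate 1, 6 of the 20 were called higher (background 6.21%), and without mock replicate 2 also 6 (background 5.97%).

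The 5 changes estimated above 1.5-fold belonged to the enzymes for isoleucine, asparagine, arginine, alanine and phenylalanine. Iars (ENSMUSG00000037851), which charges isoleucine tRNA, lies on chromosome 13 (plus strand, 49682100 to 49734267, GRCm38). It stood at 166 and 155 CPM in the LysoPS libraries against 93.9 and 94.5 CPM in the mock libraries, and had a log2 fold change of 0.77 (SE 0.07, adjusted p = 0.00265, edgeR). Nars (ENSMUSG00000024587, minus strand of chromosome 18, 64499665 to 64516557) had 288 and 285 CPM in the LysoPS libraries against 171 and 181 CPM in the mock libraries, with a log2 fold change of 0.70 (SE 0.06, adjusted p = 0.00253, edgeR). For both genes the gap between the groups was several times the gap between replicates.

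Rars, the arginine enzyme, was at 128 and 117 CPM in the LysoPS libraries and at 80.7 and 75.5 CPM in the mock libraries (log2 fold change 0.65, edgeR adjusted p = 0.00648). Aars, the alanine enzyme, was at 320.2 and 292 CPM in the LysoPS libraries and at 205 and 188 CPM in the mock libraries (0.64, adjusted p = 0.00605). Farsb, the other subunit of the phenylalanine enzyme, was at 97.5 and 94.9 CPM in the LysoPS libraries and at 60.1 and 64.3 CPM in the mock libraries (0.63, adjusted p = 0.00543). These 5 genes, Iars, Nars, Rars, Aars and Farsb, were called in each of the 4 fits that left out a library. Farsa, whose product pairs with that of Farsb, rose less (0.36, adjusted p = 0.0366) and was called in none of them; the difference between the subunits was not tested. Exons of Aars overlap those of Exosc6 on the same strand over 1326 bases, but Exosc6 held 656 counts over all libraries against 37944 for Aars.

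Next in size were the enzymes for glycine, threonine, serine, tyrosine, valine, glutamate with proline, and cysteine. Gars stood at 197 and 178 CPM in the LysoPS libraries and at 137 and 128 CPM in the mock libraries (log2 fold change 0.50, edgeR adjusted p = 0.0124). Tars, for threonine, was at 136 and 129 CPM in the LysoPS libraries and at 94.8 and 93.0 CPM in the mock libraries (0.50, adjusted p = 0.00782). In both the groups were well apart. Sars, for serine, was at 188 and 161 CPM in the LysoPS libraries and at 128 and 123 CPM in the mock libraries (0.48, adjusted p = 0.0228). Its LysoPS replicates differed by more than its mock replicates. Yars, for tyrosine, was at 92.0 and 84.8 CPM in the LysoPS libraries and at 66.2 and 61.5 CPM in the mock libraries (0.47, adjusted p = 0.0165). Vars, for valine, was at 84.3 and 74.4 CPM in the LysoPS libraries and at 58.9 and 55.8 CPM in the mock libraries (0.47, adjusted p = 0.0216). Eprs, a fused enzyme that charges both glutamate and proline tRNA, had the highest CPM of these genes in the mock libraries and showed the closest LysoPS replicates. It was at 318 and 317 CPM in the LysoPS libraries and at 227 and 235 CPM in the mock libraries (0.46, SE 0.06, adjusted p = 0.00647). Cars, for cysteine, was at 64.3 and 61.1 CPM in the LysoPS libraries and at 47.8 and 44.3 CPM in the mock libraries (0.45, adjusted p = 0.0174).

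The remaining called genes were Mars (methionine, log2 fold change 0.38), Lars (leucine, 0.32), Hars (histidine, 0.31) and Kars (0.29). Kars, which serves both compartments, stood at 155 and 141 CPM in the LysoPS libraries against 123 and 118 CPM in the mock libraries, close to the threshold (edgeR adjusted p = 0.0461). Hars was called in none of the 4 fits that left out a library, and Kars, Lars and Mars only in the fit without LysoPS replicate 2. Mars shares 68 exonic bases with Ddit3 on the opposite strand, and the labels do not say if strand was kept. Ddit3 held 2980 counts against 11114 for Mars.

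Wars, Dars and Qars did not pass. Wars had 57.9 and 53.1 CPM in the LysoPS libraries against 47.9 and 44.6 CPM in the mock libraries, groups that did not overlap, with a log2 fold change of 0.26 (95% interval 0.04 to 0.48, adjusted p = 0.0849, edgeR). Dars, for aspartate, had a log2 fold change of 0.04 (95% interval -0.16 to 0.25), and Qars, for glutamine, one of -0.01 (-0.23 to 0.22). The upper bounds for Dars and Qars lie below the median of the cytosolic genes. The transcript length that the deposited counts and FPKM together imply for Qars varied by 1.29 times between libraries, so its reads may have gone to different transcripts in different libraries.

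**Figure D2:**
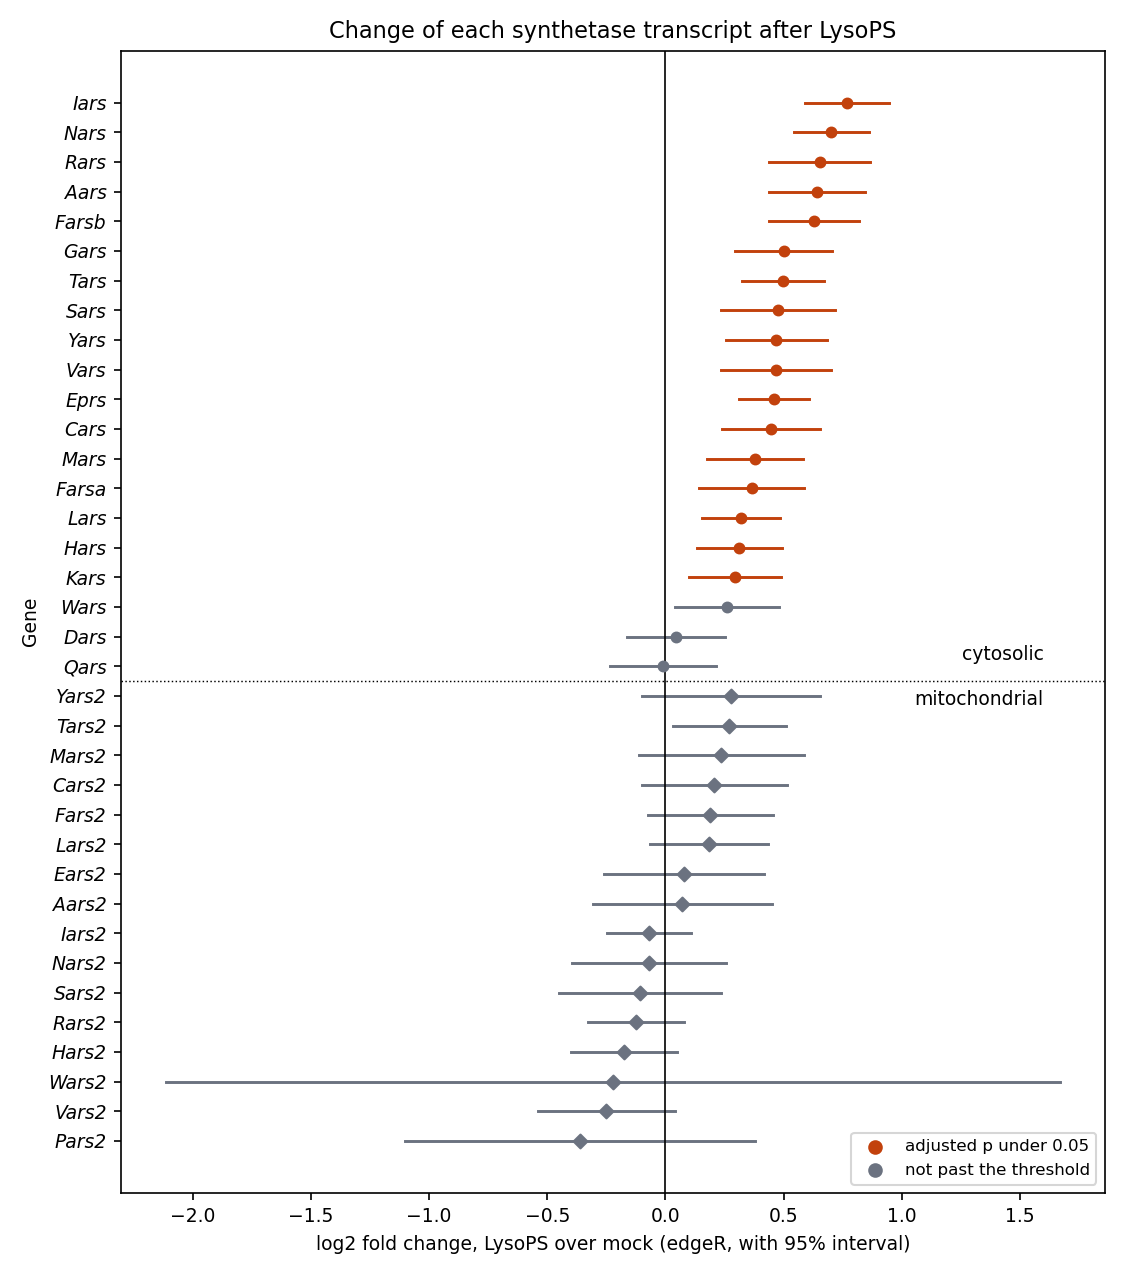
Log2 fold change (LysoPS over mock) of each synthetase transcript with its 95% interval from the edgeR fit, cytosolic genes above the dotted line and mitochondrial genes below it. The 17 genes past the threshold are all cytosolic, between 0.29 for Kars and 0.77 for Iars; the widest interval is that of Wars2.

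The rise was seen on both sides of the structural divisions of the family. Synthetases fall into class I and class II, which have unrelated catalytic folds. Of the 10 cytosolic class I genes 8 were called higher (median log2 fold change 0.45), and of the 10 class II genes 9 (median 0.49). Eprs was counted in class I only, although the proline enzyme of mitochondria, Pars2, is listed in class II. Beside all counts of this paragraph, 12.8% of all tested genes were called higher, and 20.2% of genes within the cytosolic range of levels. The 8 enzymes of the multisynthetase complex had 6 calls, with Iars and Rars highest and Dars and Qars not past the threshold (median 0.35). The 12 cytosolic genes outside the complex had 11 calls, with Wars as the exception (median 0.47). Of the 12 genes listed as ATF4 targets in other cells 11 were called (median 0.47), and of the 8 not on that list 6 were (median 0.34), among them Rars and Farsb. None of these differences between subsets was tested.

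Of the scaffold genes of the complex, Eef1e1 passed the threshold while Aimp1 and Aimp2 did not; the differences between them were not tested. Eef1e1, which encodes the subunit also called AIMP3, was at 38.5 and 39.9 CPM in the LysoPS libraries against 21.9 and 23.6 CPM in the mock libraries (log2 fold change 0.78, SE 0.09, edgeR adjusted p = 0.00436). Aimp1 had 32.3 and 30.3 CPM in the LysoPS libraries and 25.9 and 28.9 CPM in the mock libraries (0.19, 95% interval -0.06 to 0.44), and Aimp2 had 26.7 and 23.5 CPM in the LysoPS libraries and 21.9 and 19.7 CPM in the mock libraries (0.27, -0.02 to 0.56). In both, the LysoPS libraries lay above the mock libraries without passing the threshold.

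The promoters were searched for the core of the element through which ATF4 acts at amino acid response genes, TGATGNAA, on either strand (TTNCATCA when it lies on the other strand). RefSeq windows of GRCm38.p6, from 250 bases before a start site to 50 after it, were at hand for 26 of the 36 genes, 12 cytosolic and 14 mitochondrial. Cars, Hars, Hars2, Lars, Mars, Nars, Pars2, Rars, Vars and Wars had no entry. The core occurred in 5 of the 12 cytosolic genes (Aars, Gars, Iars, Tars and Yars) and in 0 of the 14 mitochondrial genes, while 3.97% of all 32851 windows and 4.51% of all genes with a window held it. The stretches of Gars, Iars, Tars and Yars are shown because they mark where genes called higher hold the letters of this core near their start. Each is given 5′ to 3′ on the gene's own strand, with the core in capitals, and positions count from 0 at the start site.
Gars, position -30, plus strand, chr6:55037961-55037988: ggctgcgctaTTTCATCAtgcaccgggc
Iars, position 7, plus strand, chr13:49682127-49682154: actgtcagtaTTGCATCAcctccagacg
Tars, position -15, minus strand, chr15:11399656-11399683: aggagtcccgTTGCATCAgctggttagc
Yars, position 3, plus strand, chr4:129189896-129189923: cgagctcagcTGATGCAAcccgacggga
In Gars, Iars and Tars the core lies on the strand opposite to the gene, and in Yars it lies on the gene's strand. The 5 genes with the core had log2 fold changes from 0.47 (Yars) to 0.77 (Iars). Farsb, Sars, Eprs, Farsa and Kars had windows without these letters and were also called higher, with log2 fold changes from 0.29 (Kars) to 0.63 (Farsb). Dars and Qars, which did not pass, had windows without them too. A core of the interferon-stimulated response element, 2 copies of GAAA with any 2 bases between them, was searched for on either strand. It was found for 1 of the 26 genes, Qars, beside 3.44% of all windows and 3.99% of all genes with a window. A match shows only that the letters are present, and the binding of any factor was not measured.

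The mitochondrial synthetases showed no called change. Of the 16 genes, edgeR called 0 higher and 0 lower at an adjusted p under 0.05, against 25.5% of all tested genes called in either direction and 29.5% of genes within their range of levels. DESeq2 and limma-voom on the same counts also called none. At an unadjusted p under 0.05 there was 1 gene, Tars2. Their log2 fold changes ran from -0.36 to 0.28 with a median of 0.00, 8 above 0 and 8 below. Both LysoPS libraries lay above both mock libraries for 5 of them and below for 4, where the shares over all tested genes were 32.5% and 34.5%. On log2(TPM + 1), where the median of all genes was -0.14, limma called Hars2 (-0.49) and Rars2 (-0.31) lower, where 16.2% of all genes were called lower. The transcript length implied for Hars2 varied by 1.19 times and was longer in both LysoPS libraries than in both mock libraries. A longer implied length gives a lower TPM for the same counts, and its part in that call was not tested.

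Their measurement was less precise than that of the cytosolic genes. The median standard error was 0.12 on the log2 scale, against 0.08 for the cytosolic genes, and 15 of the 16 had a lower mean CPM than any cytosolic gene. Even so, for 11 of the 16 the 95% interval ended below 0.46, the median of the cytosolic genes. Iars2, the most abundant of them, had a log2 fold change of -0.07 (95% interval -0.25 to 0.11). Exons of Iars2 overlap those of Rab3gap2 on the opposite strand over 2034 bases, so reads of these genes may not have been told apart. Rars2 (arginine) had -0.12 (-0.33 to 0.08) and Vars2 (valine) had -0.25 (-0.54 to 0.04). Tars2 (threonine) had 0.27 (0.03 to 0.51, edgeR adjusted p = 0.0959) and Yars2 (tyrosine) had 0.28 (-0.10 to 0.66), so a rise of the cytosolic size lies within their intervals. The same holds for the methionine gene Mars2 (0.24, -0.11 to 0.59) and the cysteine gene Cars2 (0.21, -0.10 to 0.51). The remaining genes with values above 0 were those for phenylalanine (Fars2, 0.19), leucine (Lars2, 0.19), glutamate (Ears2, 0.08) and alanine (Aars2, 0.07). Their intervals ended below 0.46 but held smaller rises such as that of Kars (0.29). Below 0 were those for asparagine (Nars2, -0.07), serine (Sars2, -0.11), histidine (Hars2, -0.17) and proline (Pars2, -0.36). Hars2 lies head to head with Hars and shares 195 exonic bases with it on the opposite strand. Cars2 shares 422 exonic bases with Naxd, which held 6308 counts against 2680 for Cars2. Ears2 shares 89 with Ubfd1 (10704 counts against 1034), and Fars2 shares 115 with Lyrm4 (2813 against 2778). These neighbours also lie on the opposite strand, so reads of such pairs may not have been told apart. For Wars2 (tryptophan) these data set almost no limit. It was at 3.70 and 12.5 CPM in the LysoPS libraries and at 14.7 and 4.49 CPM in the mock libraries, with a 95% interval from -2.11 to 1.67 and an implied transcript length that varied by 1.81 times.

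For 14 amino acids with separate genes for the 2 compartments, the ratio of cytosolic to mitochondrial transcript was taken within each library, from deposited TPM. For phenylalanine the cytosolic gene was Farsb, which rose more than Farsa (log2 fold change 0.63 against 0.36). The ratio had a median over the pairs of 5.10 in LysoPS and 4.19 in mock, and its mean was higher in LysoPS for 14 of the 14 pairs. That count largely restates the changes given above, since each cytosolic gene of these pairs had a positive log2 fold change, and it is not separate evidence. For isoleucine (Iars over Iars2) the ratio was 2.38 and 2.09 in the LysoPS libraries against 1.34 and 1.28 in the mock libraries. For asparagine (Nars over Nars2) it was 32.4 and 31.5 in the LysoPS libraries against 20.1 and 18.5 in the mock libraries. For alanine (Aars over Aars2) it was 12.3 and 14.5 in the LysoPS libraries against 9.32 and 8.97 in the mock libraries. In these 3 pairs the groups were apart, while for tryptophan, methionine and tyrosine they overlapped. The ratios are descriptions, and with 2 libraries a group an exact permutation test could not pass 0.05.

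**Figure D3:**
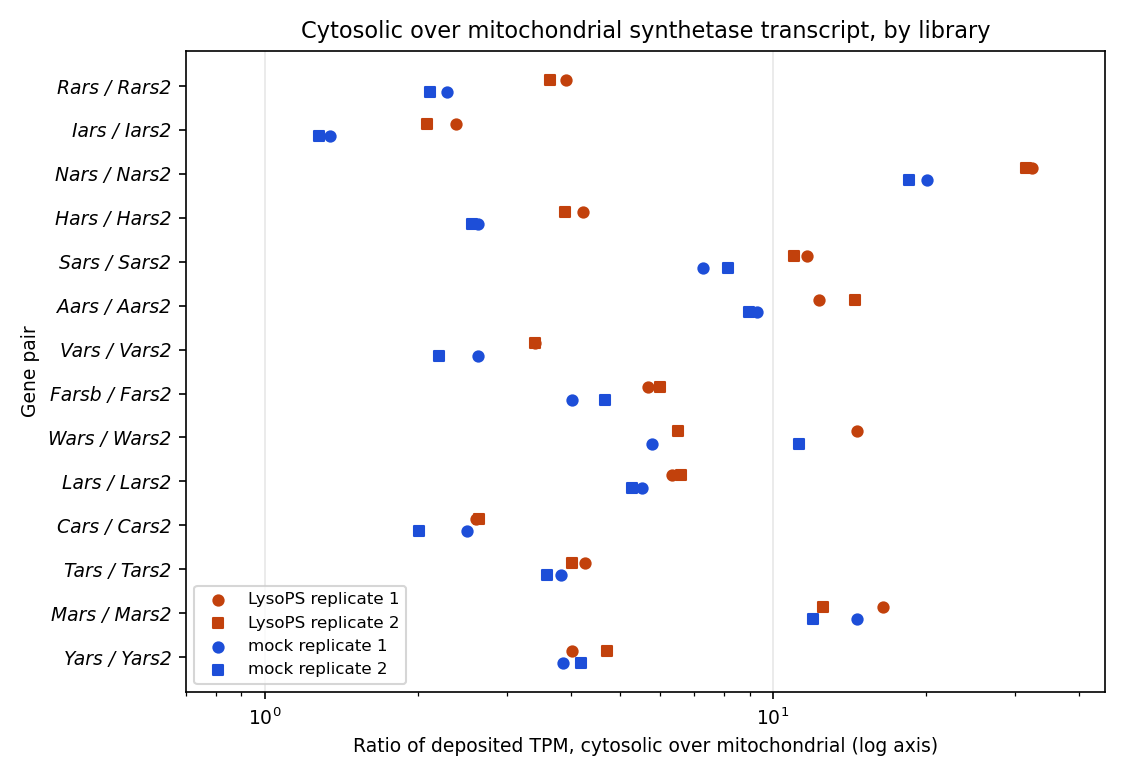
Ratio of cytosolic to mitochondrial synthetase transcript (deposited TPM, log axis) in each library for 14 pairs, ordered by the ratio of the group means. Points are single libraries; the ratio for Iars over Iars2 is 2.38 and 2.09 in LysoPS against 1.34 and 1.28 in mock, and the Wars over Wars2 points of the groups overlap.

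Of 13 charging partners and proofreading genes, 1 was higher (Eef1e1), 2 were lower and 10 did not pass (median log2 fold change -0.03), where 12.8% of all tested genes were called higher and 12.6% lower. Counts this small in a list of this size are near those shares. The lower ones were Tarsl2, a threonyl-tRNA synthetase-like gene, at 14.2 and 16.8 CPM in the LysoPS libraries against 21.8 and 23.6 CPM in the mock libraries (-0.55, edgeR adjusted p = 0.0302), and Dtd2, of the D-aminoacyl-tRNA deacylases (-0.42, adjusted p = 0.0473). Tarsl2 thus fell while Tars rose. Of 8 mitochondrial charging partners and elongation factors, 1 was higher, Gfm1, the mitochondrial elongation factor G1 (0.29, adjusted p = 0.0412), also near the share over all genes, and the median was 0.12. Of 5 cytosolic elongation factor genes, 3 were higher, among them Eef1a1, which carries charged tRNA to the ribosome, at 5564 and 5219.8 CPM in the LysoPS libraries against 4674 and 4553 CPM in the mock libraries (0.22, adjusted p = 0.0435). Eef1g (0.35) and Eef1d (0.38) were the others.

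Of 14 regulators of the amino acid response, 6 were higher and 8 did not pass, beside 12.8% of all tested genes called higher and 12.6% lower. Their median log2 fold change was 0.22. Atf4 itself was at 311 and 283 CPM in the LysoPS libraries against 189 and 181 CPM in the mock libraries (0.68, SE 0.07, edgeR adjusted p = 0.00413). ATF4 is largely controlled at translation, which was not measured. Higher too were the transcription factors Cebpb (2.27) and Ddit3 (1.19) and the ATF4 inhibitor Trib3 (1.71), as well as Atf3 (0.54) and the kinase gene Eif2ak2 (0.34). Eif2ak4, which encodes the amino acid sensor GCN2, stood at 0.00.

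Of 11 amino acid synthesis genes known as ATF4 targets, 3 were higher, 3 lower and 5 did not pass (median -0.26), beside 12.8% of all tested genes called higher and 12.6% lower. Asns, asparagine synthetase, was at 91.3 and 73.0 CPM in the LysoPS libraries against 42.1 and 44.2 CPM in the mock libraries (0.93, edgeR adjusted p = 0.00755). The mitochondrial folate enzymes Mthfd2 (1.23) and Shmt2 (0.70) rose with it. Phgdh, the first enzyme of serine synthesis, was at 101 and 96.3 CPM in the LysoPS libraries against 166 and 161 CPM in the mock libraries (-0.73, adjusted p = 0.00283), and Cbs (-1.61) and Gpt2 (-0.64) fell as well. Of 10 amino acid transporters, Slc7a1, which takes up arginine and lysine, was higher (1.06), the glycine transporter Slc6a9 (-0.81) and the neutral amino acid transporter Slc1a4 (-0.38) were lower, and 7 did not pass. Their median was -0.16, and counts this small among 10 genes are near the shares over all tested genes. In the same libraries astrocyte markers had a median of -0.87 and microglia and macrophage markers one of 0.54, and their part in these lists was not tested.

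**Figure D4:**
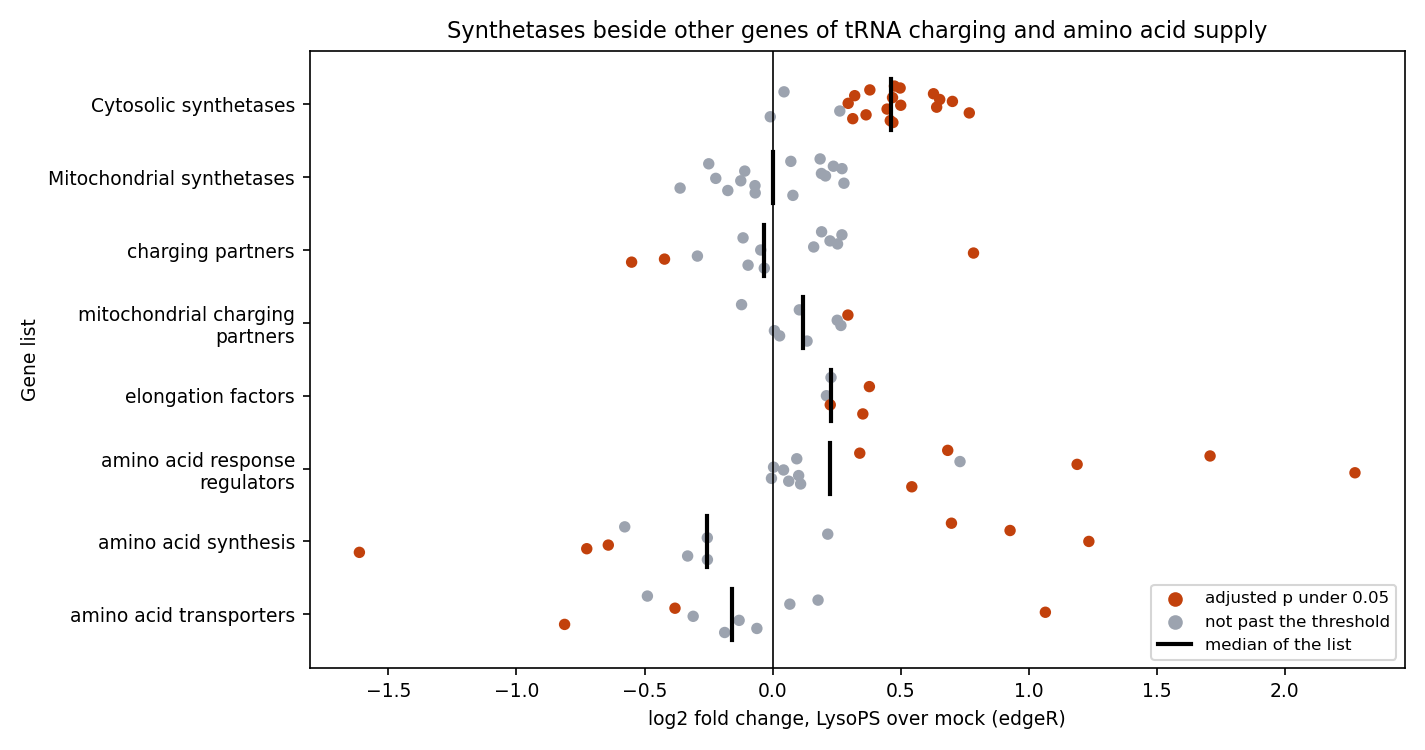
Log2 fold change (LysoPS over mock, edgeR) of the cytosolic and mitochondrial synthetases and of 6 lists of related genes, 1 point a gene, with the median of each list as a bar. The cytosolic synthetases centre on 0.46 and the mitochondrial ones on 0.00, while the amino acid synthesis genes spread from -1.61 (Cbs) to 1.23 (Mthfd2).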

How the data were processed

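Messenger RNA of 2 LysoPS and 2 mock samples was sequenced. Per the submitters' processing notes, FastQC 0.11.2, Trimmomatic 0.36, HISAT2 and StringTie were used with build GRCm38; their settings, the annotation and the counting program are not given in the labels. The deposited counts are whole numbers without normalization. The deposited TPM values were used for levels between genes, and the deposited FPKM values only to derive the transcript length they imply together with the counts (a variation over 1.2 times was taken as a sign of unstable read assignment).

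Counts were analysed with edgeR 4.0.16, limma 3.58.1 and DESeq2 1.42.0 in R 4.3.3. Genes passed filterByExpr (minimum count 10), libraries were scaled by TMM (factors 0.966 to 1.04), and the two-sided quasi-likelihood test was run on LysoPS against mock (2 residual degrees of freedom) and adjusted by Benjamini-Hochberg over 19057 genes with a threshold of 0.05. Standard errors and 95% intervals come from that fit. The test, but not its intervals, was run on simulated counts with known changes of 1.5-fold or more and a dispersion shared by all genes. That run does not cover the smaller changes of most called synthetases, and its outcome is not reported here. CPM and its means use TMM-scaled library sizes. Totals of 30001098 to 45193959 counts set the precision.

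The members and lists were chosen with earlier results of these data known. Values in each library were given for up to 12 cytosolic members past the threshold with the smallest p, and for Wars, Gars and Kars; of other lists, up to 4 calls with the smallest p and Atf4, Asns, Aimp1, Aimp2 and Eef1e1 were named. Wars2, Cbs, Gpt2, Eif2ak4 and others beyond this rule were named after their values were seen. Exon overlaps were taken from GENCODE M21 and promoter sequences from RefSeq (GRCm38.p6); the stretches of Aars are not reported here. Alternatives tried were no filter, DESeq2 size factors, a filter of 5 CPM in 2 libraries, DESeq2, limma-voom, a replicate block, each library left out, a null of a 1.5-fold change, and limma-trend on log2(TPM + 1).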

Additional observations from a re-analysis of the deposited data

How the results depend on the processing

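The count of 17 cytosolic synthetases called higher was also given by DESeq2 size factors, no filter, the stricter filter, DESeq2, limma-voom and the replicate block. None of the 20 cytosolic members was called lower under any alternative run. Tarsl2, the threonyl-tRNA synthetase-like gene called lower in the main fit (-0.55), is not among these 20. Leaving out each library gave 6 to 15 (6 without mock replicate 1 and 6 without mock replicate 2), with 2165 to 5356 genes called of all tested. Such fits leave a lone library in 1 group, assumed to vary like the rest. Against a null of a 1.5-fold change, 0 of the 20 passed and 1064 genes of all did. On log2(TPM + 1), 8 cytosolic genes were called higher and 2 mitochondrial genes, Hars2 and Rars2, lower. The median of all genes was -0.14 there, and those of the classes were 0.26 and -0.14. The cause of the difference from the count fit was not tested. No mitochondrial gene was called under any other alternative, and Pars2 was not tested under the stricter filter.

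The fits changed the sign of some uncalled members. Qars came to 0.0052 with DESeq2 size factors, to 0.0013 by DESeq2 and to -0.098 to 0.084 over the fits without a library. In those fits Dars ran from -0.017 to 0.11, Aars2 from -0.12 to 0.24, Nars2 from -0.19 to 0.046, Pars2 from -0.71 to 0.078 and Wars2 from -1.35 to 0.86. On log2(TPM + 1), Dars stood at -0.13, Aars2 at -0.10, Ears2 at -0.040 and Lars2 at -0.10. With the replicate number as a block, 5433 genes of all tested were called against 4854, and no synthetase call changed. The replicate numbers pair nothing in the labels, and the same-numbered libraries' deviations correlated by 0.08. Pars2 and Ears2 had only 119 to 299 counts a library, and Wars2, at 124 to 547 counts, had the largest standard error of the 36 members.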
